A study of Homo sapiens with 4 samples.

Results

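The class 3 semaphorins and their receptors were followed in AGS, a widely used cell line of human stomach adenocarcinoma, after exposure to Helicobacter pylori lipopolysaccharide (LPS, a glycolipid of the bacterial outer membrane). The genes were 6 secreted semaphorins (SEMA3A, SEMA3B, SEMA3C, SEMA3D, SEMA3E and SEMA3F), both neuropilins (NRP1 and NRP2) and the plexins PLXNA1 and PLXND1, 10 of the 19775 genes that the arrays measured with a probe set of 1 gene symbol. All 33 probe sets that the platform annotation assigned to 1 of these symbols alone were taken, out of 41091 such probe sets, and none was filtered out for dim signal. A further probe set named for both SEMA3B and a microRNA gene was left out. The data were 4 Affymetrix arrays: 2 of cells given medium with 10 µg/ml LPS and 2 of cells given fresh medium alone, all harvested after 8 h and, per the series' design text, from 2 independent experiments. The line comes from 1 tumour and stands for no normal stomach lining. The family was proposed when the differences between these same arrays were already known, those of SEMA3C among them, so each difference of a member is given as a description, with its error and without a p-value of its own.

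Class 3 semaphorins are secreted guidance proteins, first known for repelling growing axons and also active on endothelial and epithelial cells. Most bind a neuropilin, which has a short cytoplasmic tail and passes the signal on through a plexin, a transmembrane receptor whose inner part acts on small GTPases and, through them, on the cytoskeleton and on adhesion. SEMA3E is the exception that binds PLXND1 directly. Neuropilins also serve as co-receptors of vascular endothelial growth factors. SEMA3B and SEMA3F have been described as tumour suppressors, while SEMA3C has been linked to growth and invasion in several carcinomas.

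Values are log2 expression per probe set as deposited, so that a difference of 1 is 2-fold. The signal of a probe set depends on its probes as well as on its transcript, so levels are not ranked between genes. The share of all 41091 probe sets that were dimmer is given only to show which probe sets lay near the bottom of the scale. Of the 33 probe sets, 10 lay at or above the median of 6.64 over all probe sets: 3 of 12 for the semaphorins, 3 of 15 for the neuropilins and 4 of 6 for the plexins. A dim probe set may report background and not transcript. On the brightest probe set of each marker, the epithelial genes KRT8, KRT18, KRT19 and EPCAM were brighter than 98.5% to 99.9% of probe sets and CDH1 than 71.2%. Leukocyte markers ran from 19.1% (CD14) to 86.7% (LYZ, which gastric glands also make), fibroblast and endothelial markers from 18.2% (CDH5) to 74.8% (COL1A1), and neuronal markers from 17.0% (STMN2) to 97.9% (TUBB3). Since probes differ, these shares show bright signal for the epithelial genes and do not settle which other genes the cells expressed.

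SEMA3C was the member whose groups lay farthest apart. Its brighter probe set, 203789_s_at, stood at 7.13 and 7.15 on the LPS arrays, against 7.83 and 7.81 on the untreated arrays. Both LPS arrays lay below both untreated arrays, with a gap of 0.66 between the nearest of them and within-group distances of a few hundredths. The means were 7.14 ± 0.02 with LPS and 7.82 ± 0.01 untreated (SD, n = 2 each), a difference of -0.68 ± 0.11 (SE of the fit), or 1.60-fold lower with LPS. Within the replicate numbers the difference was -0.70 for number 1 and -0.66 for number 2. Of all 41091 probe sets, 10 had a more negative difference, and 203789_s_at was among the 29 (0.0706%) whose groups did not overlap and were 1.5-fold or more apart, with LPS lower. That place in the table helped to choose the family and is no test of it. In this bulk measurement, fewer cells that make a transcript and less of it per cell cannot be told apart.

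The other SEMA3C probe set, 203788_s_at, did not show a difference of that size. It was at 5.08 on both LPS arrays, against 5.18 and 5.14 on the untreated arrays. Both LPS arrays again lay below both untreated arrays, but by a gap of 0.06. Its difference was -0.08 ± 0.09 (SE), with a 95% interval of -0.31 to 0.15, which does not reach the -0.68 of 203789_s_at. This probe set was dim, brighter than 23.0% of all probe sets against 62.5% for 203789_s_at. The cause of the disagreement was not tested.

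The promoter windows of SEMA3C and PLXNA1 are shown because these were the members for which every probe set separated the treated from the untreated arrays, a choice made from the measured values (over all probe sets, 17.3% separated with LPS above and 12.4% with LPS below). RefSeq promoter windows, 250 bases before and 50 after an annotated start on GRCh38.p14, were held for 8 of the 10 genes, with 16 windows in all. Each is written 5′ to 3′ on the strand of its gene, with capitals for the Sp1 motif GGGCGG on either strand.
SEMA3C, chr7:80919002-80919301, minus strand: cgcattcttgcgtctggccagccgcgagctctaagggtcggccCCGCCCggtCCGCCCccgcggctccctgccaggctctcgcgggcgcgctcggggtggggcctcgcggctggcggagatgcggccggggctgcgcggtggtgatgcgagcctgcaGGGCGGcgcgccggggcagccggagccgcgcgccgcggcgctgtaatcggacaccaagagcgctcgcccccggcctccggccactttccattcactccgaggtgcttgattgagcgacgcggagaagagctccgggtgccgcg
SEMA3C, chr7:80922340-80922639, minus strand: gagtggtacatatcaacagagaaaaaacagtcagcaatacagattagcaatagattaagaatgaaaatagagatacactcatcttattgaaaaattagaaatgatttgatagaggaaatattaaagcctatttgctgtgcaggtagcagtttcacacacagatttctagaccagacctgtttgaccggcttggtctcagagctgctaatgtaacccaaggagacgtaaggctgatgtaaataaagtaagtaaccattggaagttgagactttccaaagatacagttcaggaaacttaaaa
PLXNA1, chr3:126982865-126983164, plus strand: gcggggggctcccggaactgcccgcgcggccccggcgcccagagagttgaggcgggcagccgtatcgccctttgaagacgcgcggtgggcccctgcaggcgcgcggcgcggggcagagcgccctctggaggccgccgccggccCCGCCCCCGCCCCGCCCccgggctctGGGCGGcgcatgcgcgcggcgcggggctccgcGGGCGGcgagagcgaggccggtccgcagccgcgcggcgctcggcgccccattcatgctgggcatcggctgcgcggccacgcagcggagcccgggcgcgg
The SEMA3C windows differed in base composition. The first was 75.7% G and C with 46 CpG and 3 Sp1 matches, and the second was 36.0% G and C with 2 CpG and no Sp1 match. The PLXNA1 window was 83.0% G and C with 54 CpG and 5 Sp1 matches, a few of which share bases or adjoin. Over all 35116 windows the median was 58.7% G and C with 14 CpG. Sp1 matches were in 9 of the 16 windows of the family and in 45.0% of all windows. The AP-1 motif TGANTCA was in 0 of the 16 windows and in 7.71% of all, the NF-kB motif in 2 of the 16 (1 each of SEMA3B and SEMA3F) and in 5.91% of all, and TATAAA in 1 of the 16 and in 11.5% of all, each searched on both strands. Some genes gave several windows and some of these overlap, so the 16 windows are not independent counts. The motif counts are matches of letters in short windows and say nothing of binding.

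**Figure D1:**
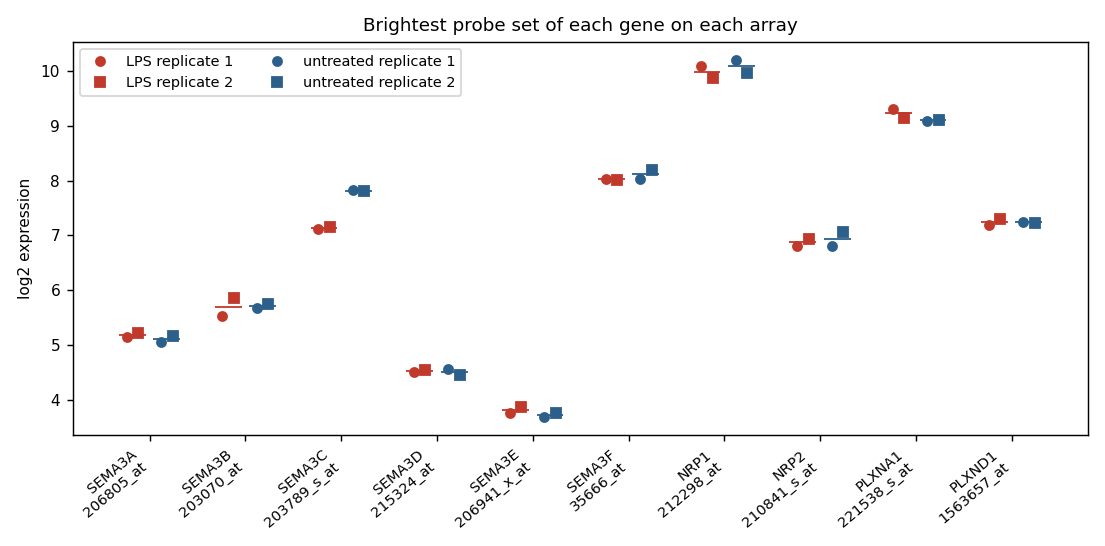
Log2 expression of the brightest probe set of each gene (y axis) on each array, with LPS points left of untreated points and bars at the group means (n = 2 each). SEMA3C stands out by LPS points at 7.13 and 7.15 under untreated points at 7.83 and 7.81, while in the other genes the group means lie within 0.13 of each other.

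The other class 3 semaphorins showed small differences. SEMA3F, a ligand that acts mainly through NRP2, stood on its brightest probe set, 35666_at, at 8.03 and 8.01 with LPS, against 8.04 and 8.20 untreated. The LPS arrays lay below the untreated arrays by a gap of 0.0057, less than the distance between the untreated arrays. The difference was -0.10 ± 0.12 (SE). Its probe set 209730_at lay the other way, at 7.18 and 7.37 with LPS, against 7.15 and 7.29 untreated, a difference of 0.06 ± 0.13. The dim 206832_s_at was at 5.26 and 5.37 with LPS, against 5.28 and 5.57 untreated, and its groups overlapped.

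SEMA3A, the collapsin that signals through NRP1 and A-type plexins, was dim on all 3 probe sets. The brightest, 206805_at, was at 5.14 and 5.22 with LPS, against 5.05 and 5.16 untreated, with overlapping groups and a difference of 0.07 ± 0.10 (SE). The LPS arrays of 244849_at lay above the untreated ones, at 3.92 and 4.08, against 3.80 and 3.87, a difference of 0.17 ± 0.09 at a level brighter than 4.2% of probe sets. The third, 244163_at, differed by -0.06 ± 0.07 and was brighter than 0.17% of probe sets. The levels of 244849_at and 244163_at lie at the bottom of the scale, where a probe set may report background and not transcript. Whether that affects their differences was not tested.

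SEMA3B was at 5.53 and 5.85 on the LPS arrays, against 5.68 and 5.75 on the untreated arrays. The LPS values enclosed the untreated ones, and the difference was -0.02 ± 0.14 (SE). SEMA3D, a ligand of NRP1, was brighter than 13.5% and 2.1% of probe sets on its 2 probe sets, which differed by 0.02 ± 0.09 and 0.03 ± 0.12. SEMA3E, the PLXND1 ligand, was at 3.76 and 3.87 with LPS, against 3.69 and 3.77 untreated, a difference of 0.08 ± 0.08 with overlapping groups. Over the 12 semaphorin probe sets, 6 differences lay above 0 and 6 below, with a median of -0.0013 and, apart from 203789_s_at of SEMA3C, a range of -0.11 to 0.17.

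NRP1, the neuropilin that binds SEMA3A, had 2 bright probe sets whose differences had opposite signs. The probe set 212298_at was at 10.09 and 9.87 with LPS, against 10.21 and 9.96 untreated. The groups overlapped: in both, the array numbered 1 was the higher. The difference was -0.10 ± 0.13 (SE), and -0.12 and -0.08 between the arrays numbered 1 and those numbered 2. The probe set 210510_s_at was at 9.61 and 9.54 with LPS, against 9.34 and 9.45 untreated. Here both LPS arrays lay above both untreated arrays by a gap of 0.09, and the difference was 0.18 ± 0.11. The other NRP1 probe sets were dim, at 4.77 and 4.97 with LPS against 4.95 and 5.06 untreated for 210615_at, and at 4.43 and 4.05 against 4.39 and 4.17 for 1561365_at. Both had overlapping groups.

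NRP2, the receptor preferred by SEMA3F, was measured by 11 probe sets, of which 1 lay above the median over all probe sets. That one, 210841_s_at, was at 6.81 and 6.94 with LPS, against 6.81 and 7.06 untreated, with overlapping groups and a difference of -0.06 ± 0.14 (SE). The next, 219367_s_at, was at 6.61 and 6.67 with LPS, against 6.63 and 6.64 untreated, a difference of 0.0038 ± 0.11. Over the 11 probe sets 6 differences lay above 0 and 5 below. The groups did not overlap in 5 of them, with LPS above in 3 and below in 2, beside 17.3% and 12.4% of all probe sets.

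The outermost NRP2 probe sets pointed opposite ways. The dim 210842_at was at 4.99 and 4.92 with LPS, against 5.15 and 5.47 untreated, a difference of -0.35 ± 0.13 (SE) that was -0.15 in the pair numbered 1 and -0.55 in the pair numbered 2. The probe set 225566_at was at 6.29 and 6.60 with LPS, against 6.07 and 6.25 untreated, a difference of 0.28 ± 0.15. In 225566_at the gap between the groups was 0.04, below the distances of 0.31 and 0.17 within them. The 223510_at and 229225_at probe sets also had LPS above untreated, with differences of 0.11 ± 0.11 and 0.19 ± 0.11, and 211844_s_at had LPS below, at -0.08 ± 0.09. The remaining 4 probe sets differed by -0.05 to 0.09 and overlapped.

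PLXNA1, the A-type plexin that partners neuropilins, was the only member besides SEMA3C for which all probe sets separated the groups, and in it LPS lay above untreated in 3 of 3, where 17.3% of all 41091 probe sets had LPS above without overlap. The probe sets of a gene share its RNA and are no independent counts. How many genes of the whole table had all their probe sets separated was not counted. The brightest, 221538_s_at, was at 9.31 and 9.14 with LPS, against 9.09 and 9.10 untreated, a difference of 0.13 ± 0.12 (SE). The gap between the groups was 0.04, below the distance of 0.17 between the LPS arrays. The probe set 221537_at was at 8.96 and 9.01 with LPS, against 8.74 on both untreated arrays. That was a gap of 0.22 with distances of 0.05 or less within the groups, and the difference was 0.25 ± 0.11, or 1.19-fold, with a 95% interval of -0.01 to 0.51. The dim 1558140_at was at 5.83 and 5.74 with LPS, against 5.39 and 5.63 untreated, a difference of 0.28 ± 0.12.

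PLXND1, the direct receptor of SEMA3E and a partner of neuropilins for SEMA3C, differed by 0.06 or less on each of its 3 probe sets. Its probe set 1563657_at was at 7.18 and 7.29 with LPS, against 7.25 and 7.23 untreated, and both means were 7.24. The probe set 38671_at was at 6.79 and 6.98 with LPS, against 6.80 and 6.96 untreated, a difference of 0.0049 ± 0.13 (SE). The dim 212235_at was at 4.41 and 5.26 with LPS, against 4.68 and 4.86 untreated, so that its LPS arrays stood farther from each other than those of any other member probe set. In all 3 the groups overlapped, and the 95% intervals of the 2 brighter ones ran from -0.32 to 0.33 at the widest. That of 212235_at ran from -0.56 to 0.69, with differences of -0.27 and 0.40 within the pairs numbered 1 and 2, so its small difference of means is a loose estimate.

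**Figure D2:**
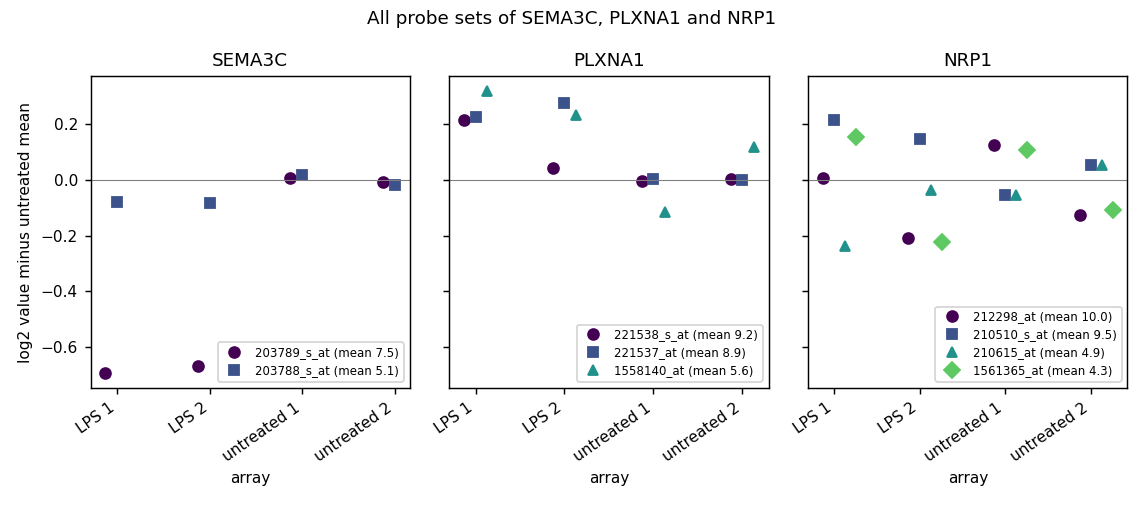
Log2 value of each array minus the untreated mean of the same probe set (y axis) for SEMA3C, PLXNA1 and NRP1, with LPS arrays left of untreated arrays on the x axis and a symbol for each probe set. The LPS points of SEMA3C 203789_s_at lie near -0.68 and those of 203788_s_at near -0.08, the PLXNA1 LPS points lie above 0 in all 3 probe sets, and the NRP1 probe sets go both ways.

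The whole table gave the background for these counts. With limma's moderated test adjusted over all 41091 probe sets, 0 passed the threshold of 0.05 in either direction (0.0% called), and 0 of the 33 member probe sets did. At an unadjusted p under 0.05 there were 1102 probe sets (2.68%), of which 488 were higher (1.19%) and 614 lower (1.49%) with LPS. In the family, LPS arrays lay above untreated arrays without overlap in 8 of the 33 probe sets, against 17.3% of all probe sets, and below in 5 of the 33, against 12.4% of all. Since the family was chosen with this contrast known, these counts support nothing further. The smallest two-sided p that an exact permutation test of 1 probe set can reach with 2 arrays a group is 0.33.

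As a family the members were centred near 0. Over the 33 probe sets, 18 differences lay above 0 and 15 below, where 54.9% of all probe sets lay above 0. The median was 0.0049, beside 0.014 over all probe sets, and the median size regardless of sign was 0.082, beside 0.081 over all. The median distance between the replicate arrays of the family was 0.10 within LPS and 0.11 within untreated cells, beside 0.14 and 0.11 over all probe sets. By role, the median was -0.0013 for the semaphorins, -0.03 for the neuropilins and 0.10 for PLXNA1 and PLXND1.

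**Figure D3:**
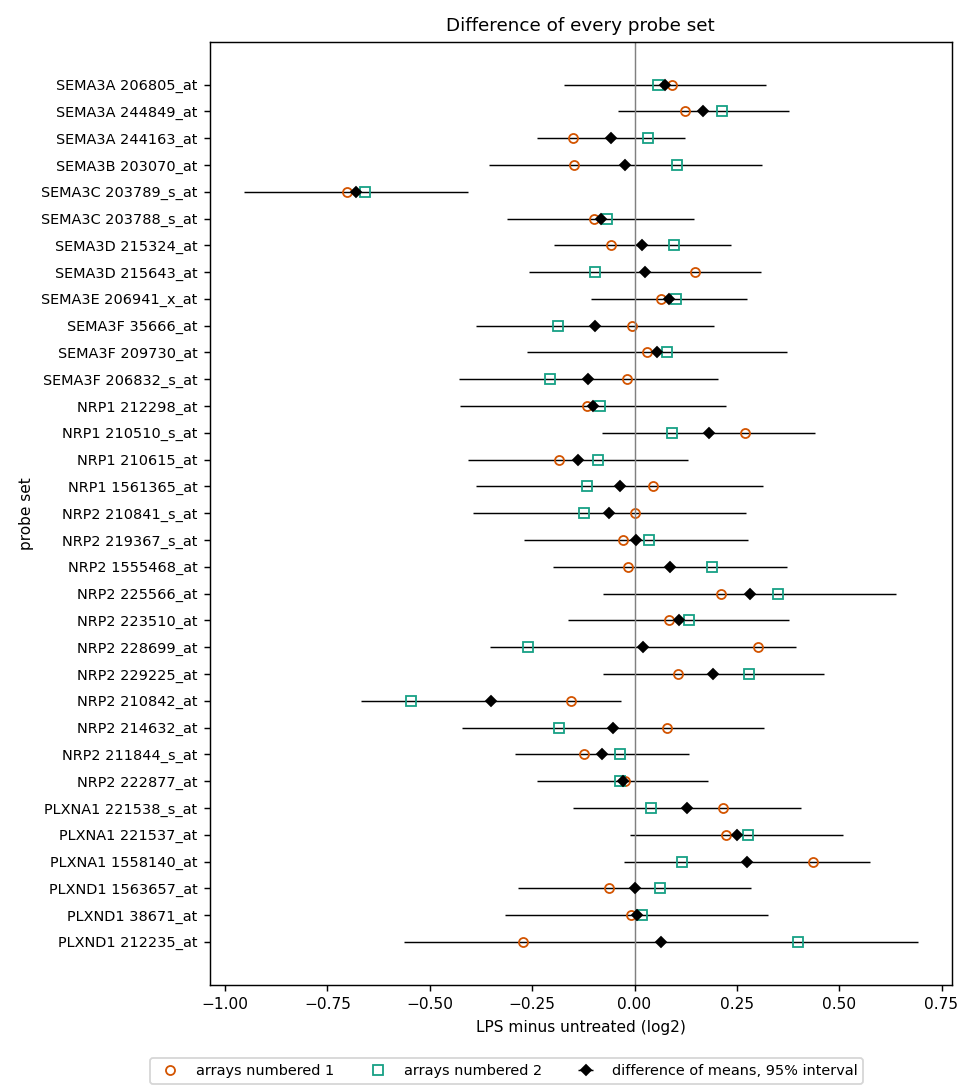
LPS minus untreated on the log2 scale (x axis) for each of the 33 probe sets (y axis, grouped by gene and ordered by signal), with the difference of means and its 95% interval from the fit as diamonds and lines, and the difference within each replicate number as open symbols (n = 2 arrays a group). The differences run from -0.68 for 203789_s_at of SEMA3C (interval -0.95 to -0.41) to 0.28 for 225566_at of NRP2 (interval -0.08 to 0.64).

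The rest of the semaphorin and plexin families was measured by 52 probe sets for 21 genes, and limma called 0 of them after adjustment (adjusted p = 1 throughout). The median difference was 0.048, with 35 above 0 and 17 below, where 54.9% of all probe sets lay above 0. SEMA3G, the remaining class 3 semaphorin, was at 5.83 and 5.84 with LPS, against 5.77 and 6.01 untreated. Its groups overlapped. The A-type plexins other than PLXNA1 went both ways: 3 probe sets of PLXNA2 differed by -0.19 to 0.06, 3 of PLXNA3 by -0.0095 to 0.16 and 4 of PLXNA4 by -0.02 to 0.29. PLXNA2 227032_at was at 7.76 and 7.60 with LPS, against 7.95 and 7.80 untreated, a difference of -0.19 ± 0.13 (SE). SEMA6B 224182_x_at, of a transmembrane semaphorin, differed by 0.24 ± 0.13, while its other probe sets differed by 0.04 and -0.0064 with overlapping groups. PLXNB3, a B-type plexin with 1 probe set, differed by 0.19 ± 0.13. At an unadjusted p under 0.05 there was 1 probe set, 244746_at of SEMA6D, with a difference of 0.28 ± 0.12, named after its value was seen.

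Genes that share neuropilins or process semaphorins were measured by 36 probe sets for 15 of 16 genes, and again limma called 0 after adjustment (adjusted p = 1 throughout). Their median was 0.053, with 25 above 0 and 11 below, beside 54.9% of all probe sets above 0. VEGFA, the vascular growth factor that binds neuropilins, had 4 probe sets that differed by 0.04 to 0.16, and the brightest was at 12.86 and 12.77 with LPS, against 12.81 and 12.74 untreated. FURIN, a protease that cleaves class 3 semaphorins, differed by 0.20 on its 1 probe set, with overlapping groups. The related protease gene PCSK5 disagreed among its probe sets, from -0.20 to 0.15. NRCAM, an adhesion molecule that partners NRP2, was the only gene of that list at an unadjusted p under 0.05 and was named after its value was seen. Its probe set 204105_s_at was at 5.60 and 5.79 with LPS, against 5.96 and 6.26 untreated, a difference of -0.41 ± 0.15 (SE), and its other probe set differed by 0.04.

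Cytosolic genes of plexin signalling were measured by 51 probe sets for 19 genes. Of their differences, 26 lay above 0 and 25 below. By limma, 0 of these were called after adjustment (adjusted p = 1 throughout) and 0 at an unadjusted p under 0.05, with a median difference of 0.0017. RAC1, a small GTPase of the cytoskeleton, was at 11.20 and 11.18 with LPS, against 11.62 and 11.31 untreated, on 1567458_s_at, while its brighter probe sets differed by -0.03 and -0.0022. CDK5, a kinase that acts on collapsin response mediators, was at 8.58 and 8.78 with LPS, against 8.84 and 9.00 untreated, a difference of -0.25 ± 0.13 (SE). DPYSL4, one of those mediators, was at 7.03 and 7.22 with LPS, against 6.92 and 6.76 untreated, a difference of 0.28 ± 0.13 on 214301_s_at. Its dimmer probe sets differed by -0.17, with LPS below untreated without overlap, and by 0.04.

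**Figure D4:**
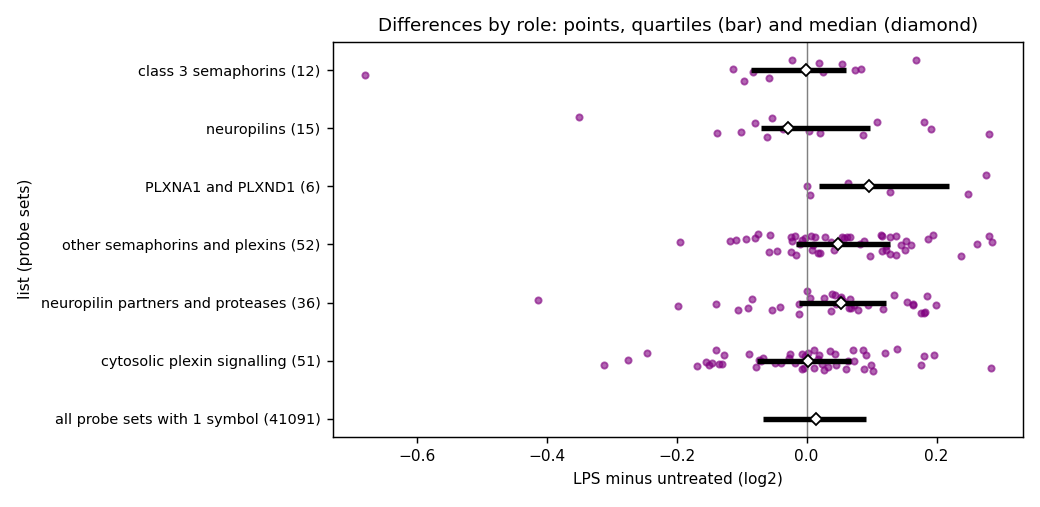
LPS minus untreated on the log2 scale (x axis) of each probe set (points, spread vertically for legibility) by role (y axis, number of probe sets in brackets), with bars from the lower to the upper quartile and diamonds at the median. All medians lie between -0.03 and 0.10, and SEMA3C 203789_s_at at -0.68 lies apart from the points of every list shown.

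The genes whose array profile was most like that of SEMA3C 203789_s_at were looked for among 19765 genes outside the family, on 1 probe set a gene, by the Euclidean distance between log2 values centred on their own mean over the 4 arrays. With 4 arrays the measure says little beyond that these genes also lay lower with LPS. THBS1, the matrix glycoprotein thrombospondin 1, was nearest at a distance of 0.088, with 8.96 and 9.03 on the LPS arrays, against 9.66 and 9.57 untreated. The noncoding RNA gene LINC00630 followed at 0.18, LRRCC1 at 0.20, the growth factor receptor gene PDGFRA at 0.22 and the mitochondrial calcium uptake gene MICU3 at 0.24, with differences of -0.50, -0.49, -0.55 and -0.48. As for SEMA3C, the dimmer probe sets of PDGFRA and LINC00630 did not share the difference, at 0.01 to 0.08 and at -0.04. Those of THBS1 ran from -0.36 to 0.15.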

How the data were processed

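Expression was measured in AGS cells on 4 single-channel arrays, 2 with LPS and 2 untreated, and 41091 of the 54675 probe sets had 1 gene symbol and were no control. Those with several symbols (1801), none (11721) or a control name (62) were left out. MAS5 and RMA appear in the submitters' processing notes, with no role or version, and the deposited values have the form of RMA log2 expression, with medians of 6.31 to 6.36. How background was treated is not given in the sources used here. Detection calls were not used, and the number of arrays limits the precision.

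No further normalization was applied. Probe sets were named through the platform annotation, checked by gene number against a RefSeq table, which held 41037 of them and updated 0 symbols. Differences, SE, 95% intervals and p-values came from limma 3.58.1 in R 4.3.3, without a replicate block. The settings were an intensity trend, two-sided tests, Benjamini-Hochberg over all 41091 probe sets and a threshold of 0.05. The fit was tested on simulated data with noise independent between arrays and planted changes larger than any member difference. That simulation says nothing of smaller changes or of arrays that deviate together. The members and lists were chosen with earlier results of these data known. Named genes were every member probe set, up to 3 probe sets of each list at or above the median level with the largest moderated statistic, the probe sets of SEMA3G and PLXNA2 to PLXNA4, and the 5 genes most like SEMA3C. SEMA6D, NRCAM, FURIN and the other probe sets given beside a named one were chosen after their values were seen. Marker genes of fibroblasts and endothelium (22 probe sets, median difference 0.062), leukocytes (9, -0.074) and neurons (12, 0.055) and of epithelium (7, -0.069) gave 0 calls. The alternatives were quantile normalization, a median expression filter, 1 probe set a gene, leaving out names in _x_at or _s_at, no trend, a replicate block and each array left out. Figures were drawn with matplotlib 3.10.9.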

Additional observations from a re-analysis of the deposited data

How the results depend on the processing

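The number of probe sets past the adjusted threshold was 0 in both directions in each of the 10 alternatives, for the whole table, the family and the other lists of the pathway alike. The smallest adjusted p ran from 0.134 (without LPS replicate 2) to 1, and was 0.299 with 1 probe set a gene. The alternatives that select probe sets, no trend and the replicate block cannot move the difference of a probe set. Only quantile normalization and leaving out an array can. SEMA3C 203789_s_at differed by -0.69 to -0.67 in the 9 alternatives that hold it, of either kind. It ends in _s_at, as does the other SEMA3C probe set, so leaving out such probe sets leaves no value for the gene. The PLXNA1 differences ran from 0.04 to 0.39 in the alternatives that held them. Their groups did not overlap, so leaving out 1 array could not turn their sign. Quantile normalization could have, and with it they were 0.14 for 221538_s_at, 0.26 for 221537_at and 0.26 for 1558140_at. Of the 33 member probe sets, 17 kept the sign of their difference in each alternative and 16 did not. Where the groups did not overlap (LPS above in 8, below in 5), only quantile normalization could have turned the sign. The family's median of 0.0049 ran from -0.0151 to 0.0652 when 1 array was left out, the highest without untreated replicate 2, and was -0.0059 with quantile normalization and -0.0111 with 1 probe set a gene. Whether a shared replicate number means a shared experiment is not in the labels, and same-numbered arrays deviated together (r = 0.543 across probe sets). With the replicate number as a block 0 probe sets passed (limma, smallest adjusted p = 0.655). The count at an unadjusted p under 0.05 was 1222 higher and 1784 lower. The block leaves every difference, and so the family's median of 0.0049, unchanged by construction, but it alters the errors. The SE and intervals given for members are those without the block. With it the SE was 0.07 and not 0.11 for PLXNA1 221537_at, and 0.07 and not 0.13 for NRP1 212298_at. For SEMA3A 244163_at it was 0.0754 and not 0.0747. Signal over background was not measured. Whether a change in transcript is understated in the 23 member probe sets below the median was not tested.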
